A study of Mus musculus with 3 samples.

Results

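The neutrophil-attracting CXC chemokine cluster of mouse chromosome 5 was described here through 6 of its genes, Cxcl1, Cxcl2, Cxcl3, Cxcl5, Ppbp and Pf4, taken by name from the 55536 genes measured. All 6 had an entry in the tables of each library, though Cxcl3 had no counts in the gene tables. Cxcl2 was the most abundant member, at 55.7 ± 41.1 TPM (a level scaled for transcript length within each library; SD, n = 3). Cxcl1 followed at 6.76 ± 6.47 TPM and Pf4 at 2.94 ± 2.32 TPM (3.31 and 1.6 TPM without replicate 3). Ppbp, Cxcl5 and Cxcl3 lay at or below 0.1 TPM in every library of the gene table. A second transcript table put Cxcl5 at 2.21 ± 0.201 TPM and Cxcl3 at 0.294 ± 0.0569 TPM. Among 9540 protein-coding genes at a mean of 50 or more counts, Cxcl1 and Cxcl2 were within the 8 that varied most between libraries. Both were lowest in replicate 2, as were 33.9% of those genes by counts scaled to library size and composition and 70.7% by TPM.

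The libraries were made from the chromatin fraction of macrophages grown out of the bone marrow of C57BL/6J mice, a primary cell culture. The cells had received Lipid A, the TLR4-activating part of bacterial lipopolysaccharide, at 100 ng/ml for 12 h, were washed and left for 12 h, and were then given 100 ng/ml for a further 20 min. There was this 1 group, with total RNA sequenced after ribosomal RNA depletion, and no untreated or singly treated library. No level below can therefore be assigned to either exposure. The labels give biological replicates 1, 2 and 3 with starting amounts of 1 µg, 250 ng and 500 ng of RNA, so the amount of RNA cannot be told apart from the replicate. All 3 carry the same donor entry, and their spread may in part be technical. Age and sex were not collected, per the labels.

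The cells' identity was checked first. All 8 macrophage markers (Adgre1, Csf1r, Cd68, Lyz2, Mertk, Spi1, Itgam and Fcgr1) reached 1 TPM in every library, and their summed levels were 1060, 862 and 953 TPM in replicates 1, 2 and 3. None of 10 neutrophil markers did. Their summed levels were 1.27, 0.71 and 1.55 TPM, and S100a8, S100a9, Ly6g and Cxcr2 had 0 counts. The second transcript table, a separate estimate, put Cxcr2 at 4.42 ± 1.61, Mpo at 2.11 ± 0.503 and Ngp at 1.02 ± 0.309 TPM, and S100a8 at 0. Of 8 markers of megakaryocytes and platelets, 4 reached 1 TPM (Itga2b, Gp1ba, Gp9 and Treml1), with sums of 7.08, 7.68 and 8.24 TPM. Of 8 markers of stroma, endothelium and epithelium only the VEGF receptor gene Kdr did. Pecam1 narrowly missed that level, at 2.15, 1.71 and 0.99 TPM. That list summed to 12.4, 3.95 and 4.78 TPM, with Epcam at 0 counts. The second table put Pecam1 at 9.5 ± 2.0, Kdr at 5.96 ± 4.63, Col1a1 at 1.62 ± 0.127 and Epcam at 0.419 ± 0.0568 TPM.

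CXC chemokines are small secreted proteins that direct leukocyte migration. Cxcl1, Cxcl2, Cxcl3 and Cxcl5 act on the receptor Cxcr2 and draw neutrophils out of the blood into inflamed tissue. Ppbp gives rise to a platelet-derived ligand of the same receptor, and Pf4 is the platelet granule protein platelet factor 4, which binds heparin-like glycans and is not a classical Cxcr2 ligand. In macrophages TLR4 signalling switches on Cxcl1 and Cxcl2 quickly through NF-kB, and AU-rich elements in their 3′ untranslated regions (UTRs) mark the mRNAs for rapid decay. Chromatin-associated RNA is enriched in transcripts still being made or spliced.

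The genes lie on the plus strand of chromosome 5 (mm10) within 147 kb. From left to right they are Cxcl5 (ENSMUSG00000029371.7, chr5:90759360-90761624), Ppbp (ENSMUSG00000029372.7, chr5:90768518-90770063), Pf4 (ENSMUSG00000029373.7, chr5:90772435-90773383), Cxcl3 (ENSMUSG00000029379.10, chr5:90786103-90789600), Cxcl1 (ENSMUSG00000029380.11, chr5:90891241-90893115) and Cxcl2 (ENSMUSG00000058427.10, chr5:90903871-90905938). Gaps of 6.89, 2.37 and 12.7 kb separate the first 4, a gap of 102 kb precedes Cxcl1, and 10.8 kb lie between Cxcl1 and Cxcl2. No annotated gene overlaps a member.

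The promoters of Cxcl1 and Cxcl2 are shown because both members were lowest in replicate 2 by a wide margin. That of Cxcl3 is shown because it carries the same motifs next to a gene with no counts in the gene tables. Each line gives the 120 bases before the gene start on the plus strand of GRCm38.p6. Starts are the GENCODE ones given above, except for Cxcl3, where the RefSeq start lies 2 bases further left. The sequences are from RefSeq, whose table held 5 of the 6 members (all but Cxcl5). Capitals mark matches to the NF-kB consensus, to TATAAA and to the related ATAAAAG.
Cxcl1 promoter, chr5:90891121-90891240: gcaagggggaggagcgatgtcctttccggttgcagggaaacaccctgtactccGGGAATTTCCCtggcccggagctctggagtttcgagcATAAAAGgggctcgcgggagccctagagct
Cxcl2 promoter, chr5:90903751-90903870: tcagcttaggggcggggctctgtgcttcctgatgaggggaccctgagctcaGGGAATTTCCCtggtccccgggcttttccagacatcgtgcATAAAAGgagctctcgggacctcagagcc
Cxcl3 promoter, chr5:90785981-90786100: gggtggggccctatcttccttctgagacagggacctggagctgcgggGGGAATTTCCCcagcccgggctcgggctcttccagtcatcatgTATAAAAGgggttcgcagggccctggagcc

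All 3 promoters held the same NF-kB match, GGGAATTTCC, starting 67, 69 and 73 bases before the gene start of Cxcl1, Cxcl2 and Cxcl3. The opposite strand matched as well, shifted by 1 base, so the overlapping pair is a single run in the lines above. ATAAAAG began 30, 29 and 29 bases before the start, and in Cxcl3 it overlapped a TATAAA. Of 32851 promoters of 300 bases, 8.46% held an NF-kB consensus match, 0.0883% (29 promoters) the form GGGAATTTCC, 13.6% TATAAA and 5.42% ATAAAAG, on either strand. The whole windows of Ppbp and Pf4 had no NF-kB match. Ppbp had TATAAA at 30 and at 8 bases before the start, and it was the only member with the AP-1 letters TGANTCA, held by 7.81% of promoters. The C/EBP letters TTNCNNNAA occurred in Cxcl1 and Cxcl2, and in 36.6% of promoters. These matches describe letters in the reference and are not evidence of binding. ATAAAAG and GGGAATTTCC were chosen after the promoters had been read.

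The AU-rich parts of the 3′ UTRs are shown because they are the kind of site that the decay protein Zfp36 binds. Each line is a 30-base window of the annotated 3′ UTR (GENCODE M21, mm10, plus strand) with the most copies of ATTTA, which are in capitals, from the transcript with the longest 3′ UTR.
Cxcl1, chr5:90892607-90892636: tcctATTTATTTAtgtATTTATTTAttcca
Cxcl2, chr5:90905328-90905357: ATTTATTTAtctatgtATTTATTTATTTAt
Cxcl3, chr5:90787636-90787665: gcatcttATTTAatgtttATTTAatatcaa
Cxcl5, chr5:90761228-90761257: aaactgtatactATTTAttaattattaact

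Cxcl1 held 7 copies of ATTTA in 592 bases and Cxcl2 held 11, in 1494 bases of the longest annotated form, Cxcl2-202, and in 734 bases of the main spliced form, Cxcl2-201. The window shown lies in both. These counts stand against a median of 1 copy in 960 bases over 21028 protein-coding genes. The longer element TATTTAT occurred 6 times in Cxcl1 and 7 times in Cxcl2, while 0.851% of genes had 5 or more copies. Cxcl3 had 2 copies of TATTTAT, and 10.4% of genes had 2 or more. Cxcl5 had 1, and 27.6% of genes had any. Ppbp and Pf4 held 1 ATTTA each and no TATTTAT. The 2 members with the most copies of TATTTAT were also the 2 with the highest RNA levels. Whether copies and levels are related was not tested.

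Cxcl2 is the chemokine also known as MIP-2. Its gene level was 82.02, 8.29 and 76.67 TPM in replicates 1, 2 and 3, on 1286, 332 and 1489 expected counts. Replicates 1 and 3 were high and close together, and replicate 2 was far below both. Cxcl2 stood above 96.1% and 96.4% of protein-coding genes in replicates 1 and 3 and above 74.7% in replicate 2. It made up 82.2 ± 8.68% of the summed level of the 6 members (SD, n = 3), which was 89.3, 11.1 and 96.0 TPM. In the second table the share was 67.8 ± 20.5%, with 86.2, 45.7 and 71.6% in replicates 1, 2 and 3.

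Cxcl1, also known as KC, had 5.8, 0.82 and 13.66 TPM in replicates 1, 2 and 3, on 104, 26 and 297 counts. It was again lowest in replicate 2, but here replicate 3 was well above replicate 1. It stood above 67.3, 52.5 and 78.8% of protein-coding genes and made up 9.37 ± 4.21% of the cluster. Cxcl2 exceeded Cxcl1 within each library, by 14.1, 10.1 and 5.61 times in TPM. Across libraries the ranges overlapped, since Cxcl2 in replicate 2 lay below Cxcl1 in replicate 3.

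Pf4, the platelet chemokine, had 1.37, 1.84 and 5.6 TPM on 5, 11 and 13 counts. The 95% Poisson intervals of these counts, which cover counting error only, were 1.62 to 11.7, 5.49 to 19.7 and 6.92 to 22.2. Replicate 3 was highest and replicate 1 lowest, and the intervals of all 3 counts overlapped. Scaled to library size, the ratio of replicate 1 to replicate 3 was 0.446 (conditional binomial 95% interval 0.124 to 1.33), which holds equal levels. The summed platelet markers were highest in replicate 3 as well, through Treml1 (2.6, 1.86 and 4.19 TPM), whereas Itga2b, Gp1ba and Gp9 were lowest there at 1.15, 1.34 and 1.11 TPM. Their part in the Pf4 value was not tested.

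The other platelet chemokine, Ppbp, had 0.1, 0.09 and 0.08 TPM on 1, 2 and 1 counts. Cxcl5, also known as LIX and a product mainly of epithelial and stromal cells, had 0.06, 0.03 and 0 TPM on 1, 1 and 0 counts. Cxcl3 had 0 counts in all 3 libraries. A count of 0 allows up to 3 counts, which for Cxcl3 is 0.125, 0.0572 and 0.105 TPM, and Cxcl2 was at least 656, 145 and 732 times higher in replicates 1, 2 and 3 by the gene tables. The second transcript table, described further on, put Cxcl3 above these limits, and Cxcl2 was 186, 17.2 and 218 times higher than Cxcl3 there. The limits thus hold for the counts of the gene tables only.

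**Figure D1:**
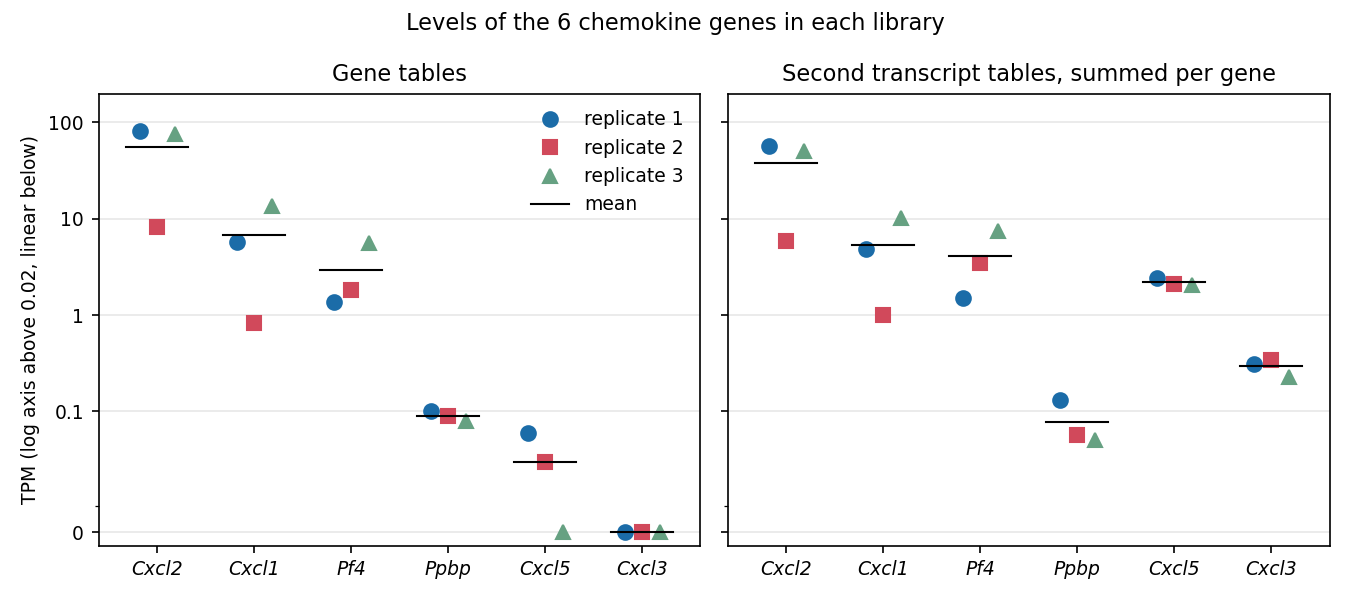
Level of each of the 6 members in TPM (vertical axis, logarithmic above 0.02 and linear below) in the gene tables (left) and summed from the second transcript tables (right), with 1 point per library and a line at the mean. Cxcl2 and Cxcl1 have their lowest point in replicate 2 (8.29 and 0.82 TPM in the gene tables), and Cxcl3 is at 0 in the gene tables only.

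In the order of mean TPM, Cxcl2, Cxcl1, Pf4, Ppbp, Cxcl5 and Cxcl3, not every step exceeded the spread. Cxcl2 above Cxcl1 held within 3 of 3 libraries (8.23 times by the means), with overlapping ranges. Cxcl1 above Pf4 held in 2 of 3 libraries, as Pf4 was higher in replicate 2. Pf4 above Ppbp held in all 3 with no overlap, on 29 counts in all against 4, so the size of that step is poorly known. Ppbp above Cxcl5 rested on 1 or 2 counts a library, and Cxcl5 above Cxcl3 on single counts, so neither step can be told from counting noise. Only Cxcl2 and Pf4 of the 6 members reached 1 TPM in all 3 libraries, against 45.2% of 22028 protein-coding genes. Pf4 did so on 5, 11 and 13 counts, where 3 counts equal 0.825, 0.502 and 1.29 TPM in replicates 1, 2 and 3. Cxcl1 fell short only in replicate 2, at 0.82 TPM on 26 counts, so Pf4 was not the more firmly measured of these 2. By the second table, 4 members reached 1 TPM in all 3 libraries, with Cxcl1 and Cxcl5 added, against 56.2% of the genes. Counts scaled to library size and composition but not to transcript length (CPM) gave the same order of means. In CPM, Cxcl1 lay above Pf4 in replicate 2 as well, at 1.1 against 0.46.

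The spread of Cxcl1 and Cxcl2 over the libraries was large. In CPM, scaled with TMM factors for library composition, Cxcl2 was at 91.62, 13.99 and 91.52 and Cxcl1 at 7.41, 1.1 and 18.25 in replicates 1, 2 and 3. Cxcl2 was 6.55 times higher in replicate 1 than in replicate 2 (conditional binomial 95% interval 5.8 to 7.41) and 6.54 times higher in replicate 3 (5.8 to 7.39). Replicates 1 and 3 had a ratio of 1.00 (0.928 to 1.08). These intervals cover counting error only. Cxcl1 was 6.76 times higher in replicate 1 (4.37 to 10.8) and 16.7 times higher in replicate 3 (11.1 to 25.9) than in replicate 2. Unlike Cxcl2 it also differed between replicates 1 and 3 beyond counting error, at a ratio of 0.406 (0.321 to 0.509).

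The SD of log2 CPM was 2.00 for Cxcl1 and 1.56 for Cxcl2, and the median over 9540 protein-coding genes at a mean of 50 or more counts was 0.19. These 2 members passed that minimum and the other 4 did not. Cxcl1 ranked 7 and Cxcl2 ranked 8 of the 9540 by SD. Among genes within 1 log2 CPM unit of the member's own level, the median SD was 0.24 for 2855 genes near Cxcl1, 1 of them with a larger SD, and 0.16 for 3026 genes near Cxcl2, with none larger. Replicate 2 decided this. Without it the SD of Cxcl2 was 0.0011 (rank 9502) and that of Cxcl1 was 0.911 (rank 100), while the median of all genes was 0.136. Without replicate 1 the ranks were 2 for Cxcl1 and 5 for Cxcl2, and without replicate 3 they were 9 and 7.

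**Figure D2:**
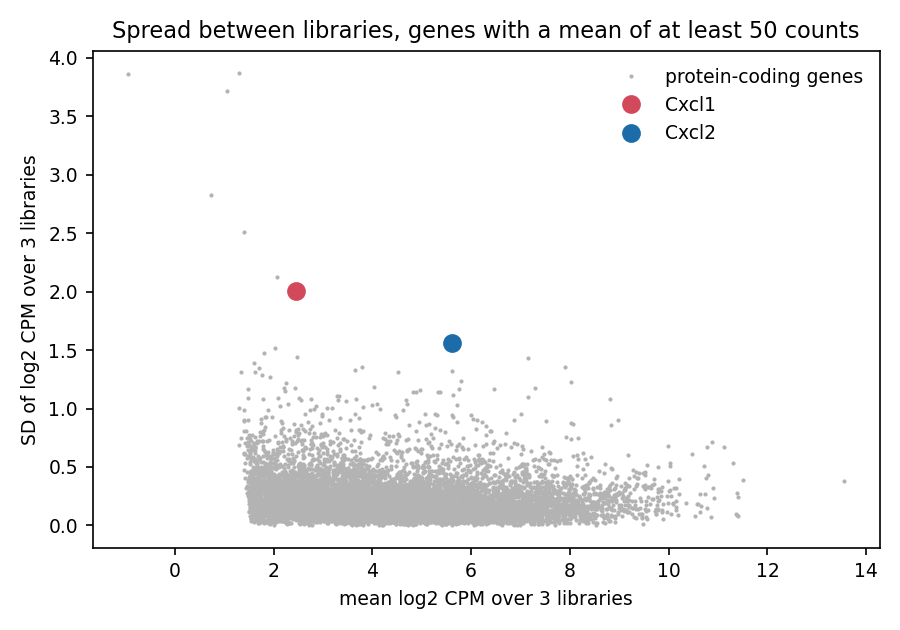
SD of log2 CPM over the 3 libraries (vertical axis) against mean log2 CPM (horizontal axis) for protein-coding genes at a mean of 50 or more counts (gray), with Cxcl1 and Cxcl2 marked. Cxcl1 (SD 2.00) and Cxcl2 (SD 1.56) lie near the top of the plot, with 1 gene of Cxcl1's level higher than it and none of Cxcl2's.

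Being lowest in replicate 2 was not rare in itself. In CPM it held for both Cxcl1 and Cxcl2 and for 33.9% of the 9540 genes. On the TPM scale it held for 70.7% of them, so CPM was used for the order of the libraries. The size was rarer. Both members were at least 2-fold higher in replicate 1 than in replicate 2, which 2.67% of the genes were, and at least 2-fold higher in replicate 3, which 1.58% were. Replicate 2 was the deepest library, with 24222661 expected counts against 13953780 and 16571228 in replicates 1 and 3. It also had the smallest starting amount of RNA. By CPM, 3 of 8 macrophage markers were lowest in replicate 2, and others such as Adgre1 were higher there (log2 CPM differences to replicate 2 of -0.51 and -0.83 for replicates 1 and 3). Of the 2 stromal and endothelial markers with enough counts, 1 was lowest there. The part of depth, starting amount and marker levels in the result was not tested. In such bulk samples fewer cells expressing a gene and less RNA per cell cannot be told apart.

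Much of the signal of Cxcl1 and Cxcl2 was assigned to transcripts that keep their introns. Both genes have 4 exons in their standard form, and both have an annotated single-exon transcript that runs through all introns. For Cxcl1 this is Cxcl1-202, 1871 bases, over 99.8% of the gene. It took 86.03, 56.02 and 89.28% of the gene's TPM in replicates 1, 2 and 3 by the authors' deposited isoform percentages, or 77.1 ± 18.3% (SD, n = 3). The low value in replicate 2 rested on 26 counts, of which 19 went to Cxcl1-202 (73.1%, Wilson 95% interval 53.9 to 86.3), against 97 of 104 (93.3%, 86.8 to 96.7) and 282 of 297 (94.9%, 91.8 to 96.9). The spliced, protein-coding Cxcl1-201 received 6.98, 6.62 and 14.74 counts. The deposited posterior SDs of these counts were 3.48, 1.71 and 3.42. In the second table Cxcl1-202 took 75.4, 86.0 and 86.4% (82.6 ± 6.24%), so its share was not lowest in replicate 2 there.

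For Cxcl2 the single-exon transcript is Cxcl2-203, 2066 bases, over 99.9% of the gene. It had 50.72, 6.07 and 46.31 TPM and took 61.83, 73.19 and 60.39% of the gene (65.1 ± 7.01%, and 63.1, 72.2 and 66% in the second table). Cxcl2-204, a short 2-exon form that also keeps an intron, took 21.2, 8.18 and 15.36%. These shares rested on 37.01, 2.81 and 26.61 counts, with posterior SDs of 6.55, 2.53 and 6.33. By counts, not scaled for length, Cxcl2-203 took 85.8, 86.7 and 80.7% in replicates 1, 2 and 3. The share of Cxcl2-203 in replicate 2 thus stood out in TPM but was close to that in replicate 1 by counts. The 4-exon protein-coding Cxcl2-201 had 13.92, 1.23 and 15.49 TPM, or 16.97, 14.85 and 20.2%. Cxcl2-202, the 3-exon protein-coding form, took 0, 3.78 and 4.05%. Cxcl2-203, Cxcl2-204 and Cxcl2-201 were thus all lowest in replicate 2, while Cxcl2-202, at 0, 0.31 and 3.1 TPM, was lowest in replicate 1.

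Summed over all transcripts annotated as retained intron, the share was 77.1 ± 18.3% for Cxcl1 and 80.1 ± 3.82% for Cxcl2. The median was 46.9% over 6149 protein-coding genes that have such a transcript and a mean of 50 or more counts. Cxcl1 lay above 92.1% and Cxcl2 above 93.9% of these genes. Both had 50% or more in all 3 libraries, as did 36.3% of the genes. The single-exon form alone reached 50% in all 3 libraries for both. Only 13 protein-coding genes at a mean of 50 or more counts had a transcript of that kind, Cxcl1 and Cxcl2 included. Of the 13, 7 (53.8%) reached 50% in all 3 libraries. Cxcl3 has such a transcript too but fell below the count minimum. The median share over the 13 was 73.0%, and Cxcl1 lay above 76.9% and Cxcl2 above 38.5% of them. So small a set, which holds the members themselves, is no separate background. Precursor RNA not yet spliced and a mature RNA that keeps its introns cannot be told apart in these tables.

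**Figure D3:**
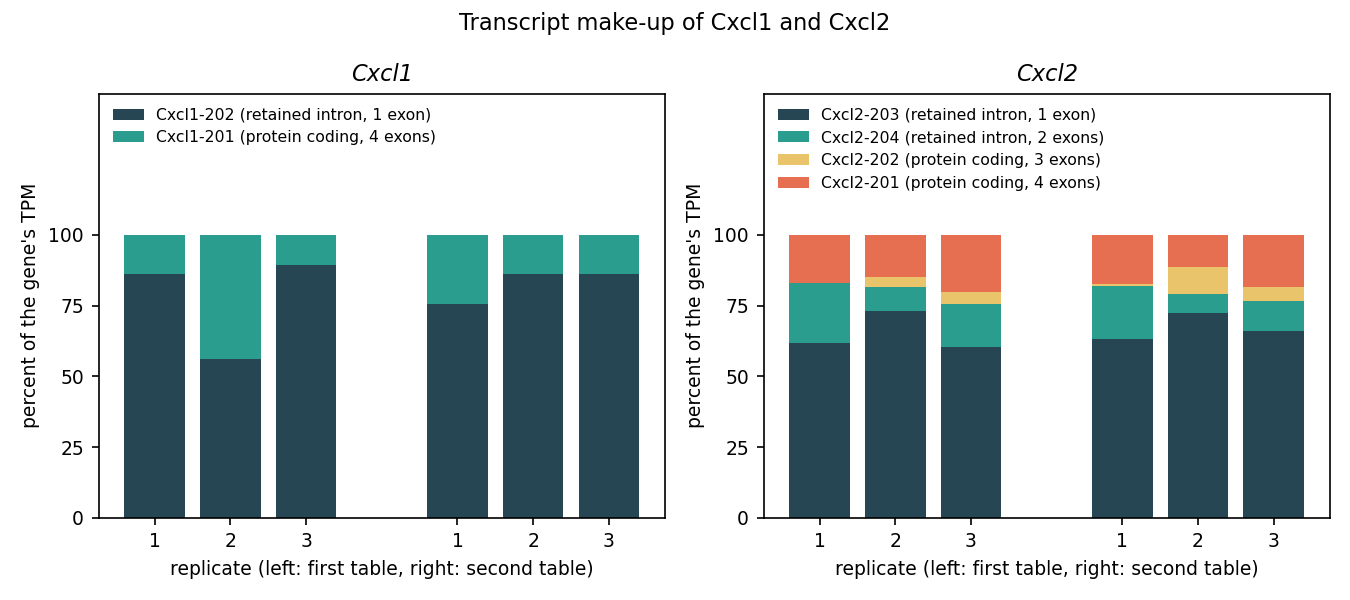
Percent of the gene's TPM on each annotated transcript of Cxcl1 and Cxcl2 (stacked bars, 1 per replicate), in the first (left) and the second transcript table (right). The single-exon transcripts Cxcl1-202 and Cxcl2-203 hold the largest part of every bar, with Cxcl1-202 lowest in replicate 2 of the first table (56.02%) but not of the second (86.0%).

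Pf4 was split over 3 transcripts. The retained-intron Pf4-202 took 0, 19.54 and 55.24% of its TPM in replicates 1, 2 and 3, but on at most 5.56 counts, which is too few to order the libraries. Ppbp has a single annotated transcript, the protein-coding Ppbp-201, and the counts of Cxcl5 in the gene table lay on the protein-coding Cxcl5-201.

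The second transcript table, of another layout, gave different answers for the low members. Summed per gene it put Cxcl5 at 2.44, 2.12 and 2.07 TPM (2.21 ± 0.201, SD, n = 3), on 59.95, 116.28 and 64.34 estimated counts that all lay on Cxcl5-201, where the gene table had 1, 1 and 0. It put Cxcl3 at 0.31, 0.34 and 0.23 TPM on 18.3, 44.8 and 17.4 estimated counts, all on the single-exon Cxcl3-202 and none on the spliced form. Both members thus had at most 2 counts in the gene tables and at least 75 in the second tables, as did 22.4% of 8012 protein-coding genes with so few gene-table counts. Both limits were set after the members' values were seen, just around them, so this share is a description only. The deposited tables therefore differ on whether any Cxcl5 or Cxcl3 RNA was present.

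For the abundant members the tables were closer. The second table gave 37.9 ± 27.9 TPM for Cxcl2, 5.32 ± 4.57 for Cxcl1 and 4.13 ± 3.04 for Pf4, with Cxcl1 and Cxcl2 again lowest in replicate 2. On the log2 scale (0.1 TPM added) the second-table mean lay 0.55 below the gene-table mean for Cxcl2 and 0.34 below it for Cxcl1. For Pf4 it was 0.48 above, and the median over the 9540 genes was 0.40 above. Sequence shared between genes was counted too, and its part in these differences was not tested. No 31-base stretch of the transcripts of Cxcl1, Ppbp or Pf4 occurred in another gene. Cxcl2 and Cxcl3 shared 161 such stretches with each other. Of their own stretches Cxcl3 had 0.905% and Cxcl5 0.871% in common with genes outside the cluster, on either strand. Though few, these stretches occurred in 2798 other genes for Cxcl3 and in 12 for Cxcl5.

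Around the cluster, within 250 kb of its ends, only 1 other protein-coding gene was clearly measured. Mthfd2l, a mitochondrial folate enzyme gene that follows Cxcl2, had 5.83, 6.6 and 8.21 TPM (6.88 ± 1.21) on 159, 269 and 250 counts. By TPM it was lowest in replicate 1. Cxcl15, which lies between Cxcl3 and Cxcl1 and encodes another neutrophil attractant known from lung, had 0 counts in the gene table and 3.02 ± 0.658 TPM in the second. In the gene table Afm, 5830473C10Rik, Rassf6 and the growth factor genes Ereg and Areg had 0 counts, and Epgn had 2 in all. In TPM, the low values of Cxcl1 and Cxcl2 in replicate 2 were thus not seen for Mthfd2l. Nor were they seen for the member Pf4, which was lowest in replicate 1, on few counts.

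**Figure D4:**
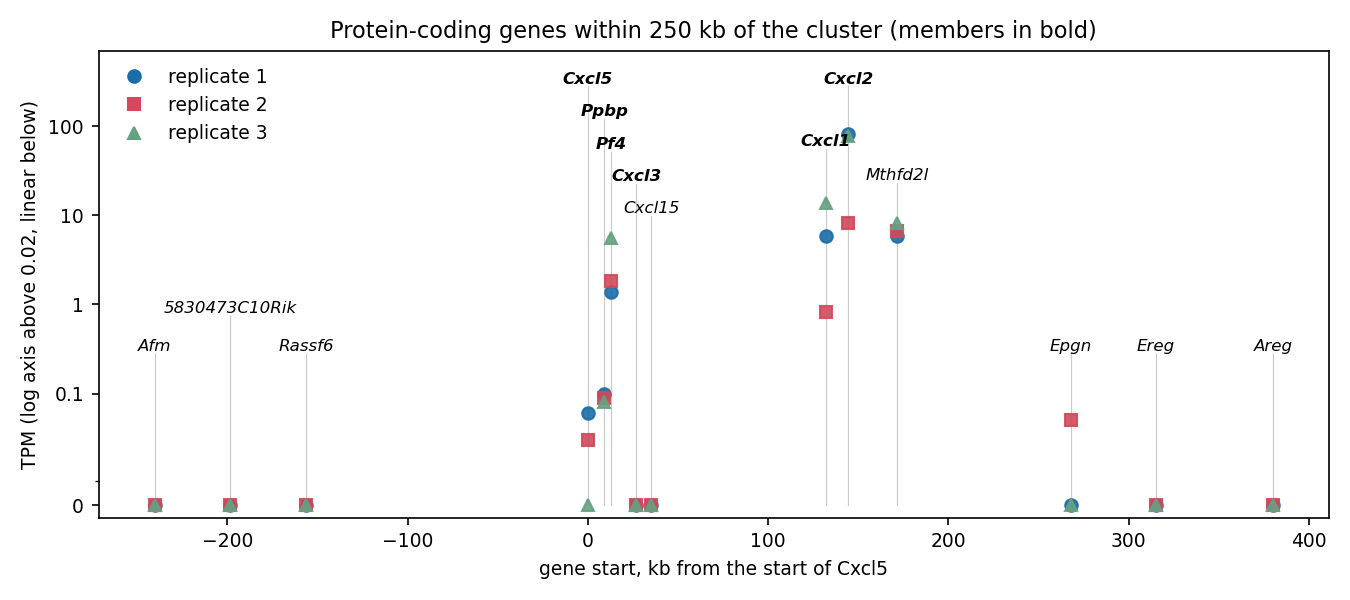
Gene level in TPM (vertical axis, logarithmic above 0.02 and linear below) of protein-coding genes within 250 kb of the cluster, placed by the distance of their start from that of Cxcl5 in kb, with 1 point per library and members in bold. Cxcl1 and Cxcl2 are low in replicate 2, and their neighbour Mthfd2l lies between 5.83 and 8.21 TPM.

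Other genes of the pathway were taken from lists. Among 5 receptors, Cxcr1, Cxcr2 and the scavenging receptor Ackr1 had 0 counts in the gene table, although the second table listed Cxcr2 at 4.42 ± 1.61 TPM. Cxcr3, a receptor of the interferon-induced CXC ligands, had 0.443 ± 0.244 TPM. Ccrl2, an atypical receptor that binds chemerin, was the only one of the 5 at 1 TPM or more in all libraries, with 33.23, 8.43 and 30.93 TPM, lowest in replicate 2. Of 8 proteases and carriers that trim or hold chemokines, only Srgn (serglycin, a granule proteoglycan) reached 1 TPM in all libraries, at 3.33 ± 1.81. The macrophage elastase gene Mmp12 had 0.507 ± 0.15 TPM there and 4.19 ± 0.732 in the second table. The neutrophil proteases Ctsg and Elane were lowest, at 0.0167 TPM on 1 count each.

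Of 9 other CXC ligands, 2 reached 1 TPM in all libraries. Cxcl10, an interferon-induced attractant of T cells, had 366.88, 52.87 and 87.93 TPM. Replicate 1 was far above the rest, whereas Cxcl2 was close in replicates 1 and 3. Cxcl16, a membrane-anchored ligand, had 46.08, 15.64 and 39.72 TPM. Cxcl11, induced like Cxcl10, had 7.5, 0.47 and 0.58 TPM and was thus also high in replicate 1 alone. Cxcl13, Cxcl14 and Cxcl15 had 0 counts in the gene table.

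All 10 genes of the induction list (TLR4 signalling, NF-kB and partners) reached 1 TPM in all libraries, from Nfkb1, an NF-kB subunit, at 79.6 ± 14.9 TPM to Ticam1, the adaptor TRIF, at 6.30 ± 0.858. Of the 10, 6 were lowest in replicate 2 by CPM, beside 33.9% of all genes, and their median SD of log2 CPM was 0.25, beside 0.19 for all genes. The receptor gene Tlr4 itself had 25.14, 20.81 and 22 TPM. The co-receptor gene Cd14 had 37.79, 22.78 and 115.88 TPM, highest in replicate 3 as Cxcl1 was. A single gene of the list, Nfkbiz, which encodes an inducible NF-kB cofactor, was at least 2-fold higher in replicate 1 than in replicate 2 by CPM. Its log2 CPM difference was 1.27 (84.14 against 26.52 TPM), and 2.67% of all genes were at least 2-fold higher. In replicate 3 this held for Cd14 alone, with a log2 CPM difference of 2.18, beside 1.58% of all genes.

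All 10 genes of mRNA decay and its control also reached 1 TPM in all libraries, and 9 of them were lowest in replicate 2 by CPM, beside 33.9% of all genes, with a median SD of 0.30. The highest was Zfp36 (tristetraprolin, which binds AU-rich elements) with 211.64, 64.25 and 185.46 TPM. Its pattern resembled that of Cxcl2 at a smaller size, with log2 CPM differences to replicate 2 of 1.35 and 1.21 for replicates 1 and 3, beside 2.70 and 2.70 for Cxcl2. Zc3h12c, of a family of RNA-cleaving decay factors, was lowest at 12.4 ± 6.72 TPM. Of the 10, 2 were at least 2-fold higher in replicate 1 than in replicate 2, beside 2.67% of all genes, and 3 were so in replicate 3, beside 1.58%. Rc3h1 (Roquin-1), which binds stem-loops in inflammatory mRNAs, had 25.4, 22.45 and 24.71 TPM, with an SD of log2 CPM of 0.01. The lists were picked with results known, and no list was tested.

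**Figure D5:**
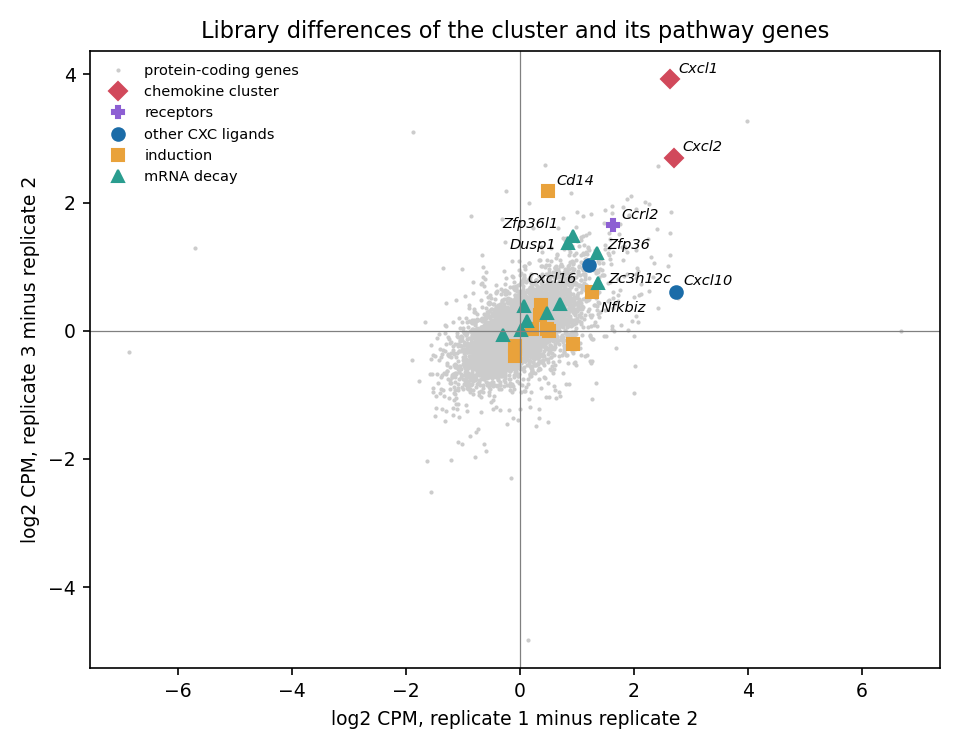
Difference in log2 CPM of replicate 1 (horizontal axis) and of replicate 3 (vertical axis) from replicate 2, for protein-coding genes at a mean of 50 or more counts (gray) and for the cluster and its pathway lists (colours). Cxcl2 lies at 2.70 on both axes and Cxcl1 at 2.64 and 3.93, whereas Cxcl10 is high on the horizontal axis only (2.73 and 0.61).

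The genes nearest in pattern were found by Euclidean distance of centred log2 CPM over the 3 libraries, among the 9540 genes. Nearest to Cxcl2 were Prkg1, a cGMP-dependent kinase gene, at a distance of 0.19 (5.0, 0.62 and 5.13 TPM), the mitochondrial gene mt-Atp8 at 0.50 and the fatty acid carrier gene Fabp4 at 0.51. Nearest to Cxcl1 were Cxcl2 at 1.03, Prkg1 at 1.04 and Ppp1r15a, a stress-induced phosphatase regulator gene, at 1.31. No gene lay within 0.5 of Cxcl1, and 29 genes were nearer to Cxcl2 than Cxcl1 was. With 3 libraries this likeness is a description of their order and size only.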

How the data were processed

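Gene and transcript levels were read from 3 total RNA-seq libraries of 1 group. The 6 members and the gene lists were chosen with earlier results of these data known. Per the labels and the deposited notes, values refer to mm10 and annotation M21; the quantification programs and the aligner are not named in these sources. The authors' deposited gene and first transcript tables hold expected counts, which need not be whole, TPM scaled for effective length, and the percent of a gene's TPM on each transcript. The authors' second transcript table holds estimated counts and TPM.

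Total expected counts were 13953780, 24222661 and 16571228 for replicates 1, 2 and 3. Of these, 2.458, 0.484 and 0.327% named no gene and stayed out of library sizes; the deposited TPM were not rescaled. All 55536 genes matched GENCODE M21, and symbols came from it and the second table. Counts were rounded, and log2 CPM used TMM factors of edgeR 4.0.16 (1.031, 0.9844 and 0.985) with a prior count of 2. Spread was set beside 9540 protein-coding genes at a mean of 50 or more counts. No difference between groups exists to test. Poisson, conditional binomial and Wilson intervals (95%) and floors of 3 counts cover counting error only, as reads are not independent molecules. In a simulation, 200 of 11630 genes were shifted up or down in a single library by factors of several sizes. Those raised by 2 log2 units came back at a median of 2.1. Named genes were all members, any gene of the lists with at least the highest and lowest of each pathway list, protein-coding genes within 250 kb, and the 3 nearest in pattern. Alternatives were DESeq2 1.42.0 size factors, a prior count of 0.5, log2(TPM + 1), other count minimums, TPM over genes only, the second table and leaving out each replicate. R 4.3.3 and Python 3.11.15 were used. RefSeq proteins were not used here.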

Additional observations from a re-analysis of the deposited data

How the results depend on the processing

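Of 73 recomputed values, 65 moved by less than the spread between replicates or, for counts and SDs, by at most 1.5 times. Without replicate 3 the mean TPM of Cxcl1 was 3.31 and that of Pf4 1.6, and without replicate 1 that of Cxcl5 was 0.015, each over 1.5 times from the main value but within its wide SD. Leaving out 1 replicate gave SDs of log2 CPM of 0.911 to 2.78 for Cxcl1 and 0.0011 to 1.91 for Cxcl2, both lowest without replicate 2. The second transcript table moved 4 main values. It put Cxcl3 at a mean of 0.294 TPM, Cxcl5 at 2.21 and Ppbp at 0.0784, and left 3 of 6 members at the same rank (Cxcl2, Cxcl1, Pf4, then Cxcl5, Cxcl3 and Ppbp), so Ppbp went from above to below Cxcl5 and Cxcl3; the cause was not tested. The share of genes lowest in replicate 2 was 33.9% in CPM, 70.7% in deposited TPM and 68.5% in the second table's TPM, so being lowest in replicate 2 on the TPM scale says little about a member. DESeq2 size factors or a prior count of 0.5 kept the ranks of Cxcl1 and Cxcl2 by SD at 7 and 8. On log2(TPM + 1) they were 5 and 3, and with the second table's counts they were 6 and 5. With DESeq2 size factors Cxcl2 was highest in replicate 3, not 1, by a margin within counting error. Depth limits Ppbp, Cxcl5 and Cxcl3, at 0 to 2 counts a library, and Pf4, at 5 to 13. No paired analysis was possible because the series holds 1 group.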
